A study of Rattus norvegicus with 32 samples.

Results

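Regulators of G protein signalling (RGS proteins, encoded by the Rgs genes) were examined in the rat nucleus accumbens 1 h after an injection of methamphetamine (METH) or saline. The members were the probes whose platform gene symbol was Rgs2, Rgs4, Rgs7, Rgs8, Rgs9, Rgs10, Rgs12, Rgs14, Rgs16 or Rgs17. All 10 symbols had 1 probe each, among 13337 gene symbols with a probe on the array. Of these 10 probes, 9 were above background on all 9 arrays, and that of Rgs16 was above background on none, so 9 members were tested. The animals were male Sprague-Dawley rats weighing 375 ± 25 g that had received a single METH dose of 20 mg/kg, or saline as the control, and nothing else that the labels name. Total RNA of the dissected nucleus accumbens, the ventral part of the striatum, was hybridised to Illumina beadchips. At 1 h there were 5 METH arrays and 4 saline arrays, numbered here as in the labels. The series held 32 arrays in all, and the 23 arrays of later times were not used, because their rows do not match the probe IDs.

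RGS proteins bind the active alpha subunit of a heterotrimeric G protein and speed up its hydrolysis of GTP, which shortens signalling from G protein-coupled receptors. The family falls into groups by sequence and by the domains beside the RGS domain. Rgs2, Rgs4, Rgs8 and Rgs16 belong to the small R4 group, Rgs7 and Rgs9 to the R7 group, Rgs10, Rgs12 and Rgs14 to the R12 group and Rgs17 to the RZ group. In the striatum a splice form of Rgs9 is abundant in projection neurons, where it limits signalling from dopamine D2 and opioid receptors. METH releases dopamine, whose receptors are coupled to G proteins.

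Mean intensity per array lay between 164.3 and 231.4 and the share of probes above background between 41.5% and 47.3%. The number of arrays limits the precision. The labels state 5 rats per group where 4 saline arrays were used, and nothing shows that each array came from its own rat, so any p-value here rests on the spread from array to array, which may be technical. The tissue label was checked against markers of striatal projection neurons, which do not tell the accumbens from other parts of the striatum. Of 25 names listed, 20 had a named probe, all 20 were tested and 19 were above background on all 9 arrays. The brightest were the GABA-synthesising enzyme gene Gad1, the dopamine signalling phosphoprotein gene Ppp1r1b (DARPP-32) and the enkephalin gene Penk. Genes listed as cortical markers were above background as well. Of 14 names listed for cortical glutamatergic neurons, 10 had a named probe, 8 were tested and 4 were above background on all 9 arrays. METH array 5 stood apart, with the highest median of those 4 cortical markers (0.96 above the saline mean on the log2 scale) and the lowest of the 20 striatal markers (-0.83) and of 2 haemoglobin genes (-1.92). METH array 2 was the METH array closest to saline by the striatal markers (-0.02), and its median of the 4 cortical markers was -0.15. Medians of cortical markers are over those 4 unless another number is given, a choice made after the values were seen. It was made because the other 4 tested were at background on 2 to 5 of the 9 arrays. Of these, 3 (Slc17a7, Neurod2 and Neurod6) had the minimum of 4 arrays above background among the METH arrays alone. The choice lowers the median, as the 4 left out all had a higher mean with METH. Over all 8 tested, 6 had a higher and 2 a lower mean, with a median difference of 0.84.

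No Rgs gene passed the test of METH against saline. In limma's fit over 9987 probes, 52 had a Benjamini-Hochberg adjusted p under 0.05, which is 0.521% of them, and 0 of the 9 Rgs probes were among these. The count over all probes was 250 without METH array 2, and 31 and 33 without saline arrays 2 and 3. The adjusted p of the members ran from 0.229 (Rgs9) to 0.674 (Rgs8). The mean was higher with METH for 5 members (Rgs2, Rgs4, Rgs7, Rgs12 and Rgs17) and lower for 4 (Rgs8, Rgs9, Rgs10 and Rgs14). At an unadjusted p under 0.05 there were 4 members, higher means for Rgs2, Rgs4 and Rgs12 and a lower mean for Rgs9. These are 3 of 9 with a higher and 1 of 9 with a lower mean, where 5.33% of all probes tested were at such a p with a higher mean and 5.66% with a lower mean. The members were chosen with earlier results of these data known, so these counts are a description and no test of the family. The members' median absolute difference was 0.36 on the log2 scale, against 0.14 over all probes tested, and their median difference was 0.25, against -0.02. The half-width of the 95% interval had a median of 0.42 for the members and 0.34 for all probes, so a change of the size seen for most members could not be told from 0 with these arrays. Intervals below are not adjusted for the number of probes. Levels are normalized log2 intensities, which are not compared between probes.

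**Figure D1:**
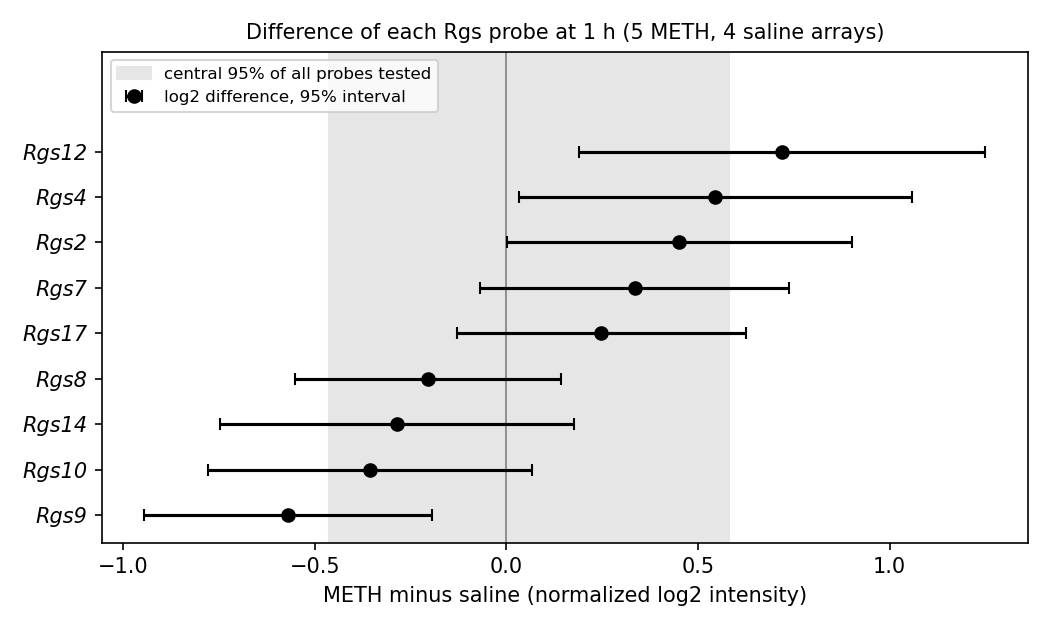
Points show the METH mean minus the saline mean of each tested Rgs probe in normalized log2 intensity, with the 95% interval of limma's fit, and the grey band holds the central 95% of all 9987 probes tested (-0.46 to 0.58). Rgs12 lies above that band and Rgs9 below it, the intervals of Rgs2, Rgs4, Rgs9 and Rgs12 leave out 0, and no probe passed after adjustment.

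Among the R4 genes, Rgs2 is known as an early response gene whose protein acts mainly on Gq. Its level was 11.39, 10.83, 10.89 and 10.61 on saline arrays 1 to 4. It was 11.66, 11.90, 11.23, 11.18 and 10.94 on METH arrays 1 to 5. METH arrays 1 and 2 lay above every saline array, the other three lay within the saline range, and saline array 1 was the highest control. The mean was 10.93 ± 0.33 (SD, n = 4) with saline and 11.38 ± 0.39 (SD, n = 5) with METH. This is a 1.37-fold difference (log2 difference 0.45 ± 0.21 SE, 95% interval 0.0024 to 0.90, adjusted p = 0.452), and all 5 METH arrays lay above the saline mean.

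Rgs4, whose protein acts on Gi and Gq and which is strongly expressed in cortex, showed another order of arrays. Its level was 10.05, 10.27, 10.18 and 10.72 on saline arrays 1 to 4. On METH arrays 1 to 5 it was 10.50, 10.17, 11.14, 11.01 and 11.43. METH arrays 3, 4 and 5 lay above every saline array, while METH arrays 1 and 2 lay within the saline range. The mean was 10.30 ± 0.29 (SD, n = 4) with saline and 10.85 ± 0.51 (SD, n = 5) with METH, a 1.46-fold difference (log2 difference 0.55 ± 0.24 SE, 95% interval 0.033 to 1.06, adjusted p = 0.427). The median of the 4 cortical markers was 0.08, -0.26, -0.27 and 0.27 on saline arrays 1 to 4 and 0.27, -0.15, 0.32, 0.56 and 0.96 on METH arrays 1 to 5, relative to the saline mean. METH arrays 3, 4 and 5 were the highest in this median too, and METH array 1 was level with saline array 4. The 4 genes did not move together. Bhlhe22 and Fezf2 had a higher mean with METH, and Lamp5 and Tle4 a lower one. The other 4 tested cortical markers, which were at background on some arrays, all had a higher mean. Their log2 differences were 1.80 (Slc17a7), 1.47 (Neurod6), 0.66 (Neurod1) and 0.60 (Neurod2). Lamp5 was at 10.56, 10.98 and 10.86 on METH arrays 3, 4 and 5, where saline arrays were at 11.29 to 11.51. The part of cortical tissue in the Rgs4 difference was not tested. In a dissected tissue, a change in RNA per cell and a change in the share of cells of a type cannot be told apart.

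Rgs8, another R4 gene, was a dim probe whose saline arrays lay close together, at 7.15, 7.33, 7.14 and 7.20. The METH arrays were at 7.07, 7.39, 6.86, 7.09 and 6.58. Of these, 4 lay below every saline array and METH array 2 above them all. The log2 difference was -0.20 ± 0.16 SE (95% interval -0.55 to 0.14, adjusted p = 0.674). Rgs16, the R4 gene that was not detected, had levels from 4.79 to 5.03 on saline arrays and from 4.86 to 5.11 on METH arrays. Its detection p was 0.095 to 0.304 over the 9 arrays, and it was not well above background in either group, so no fold is given.

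**Figure D2:**
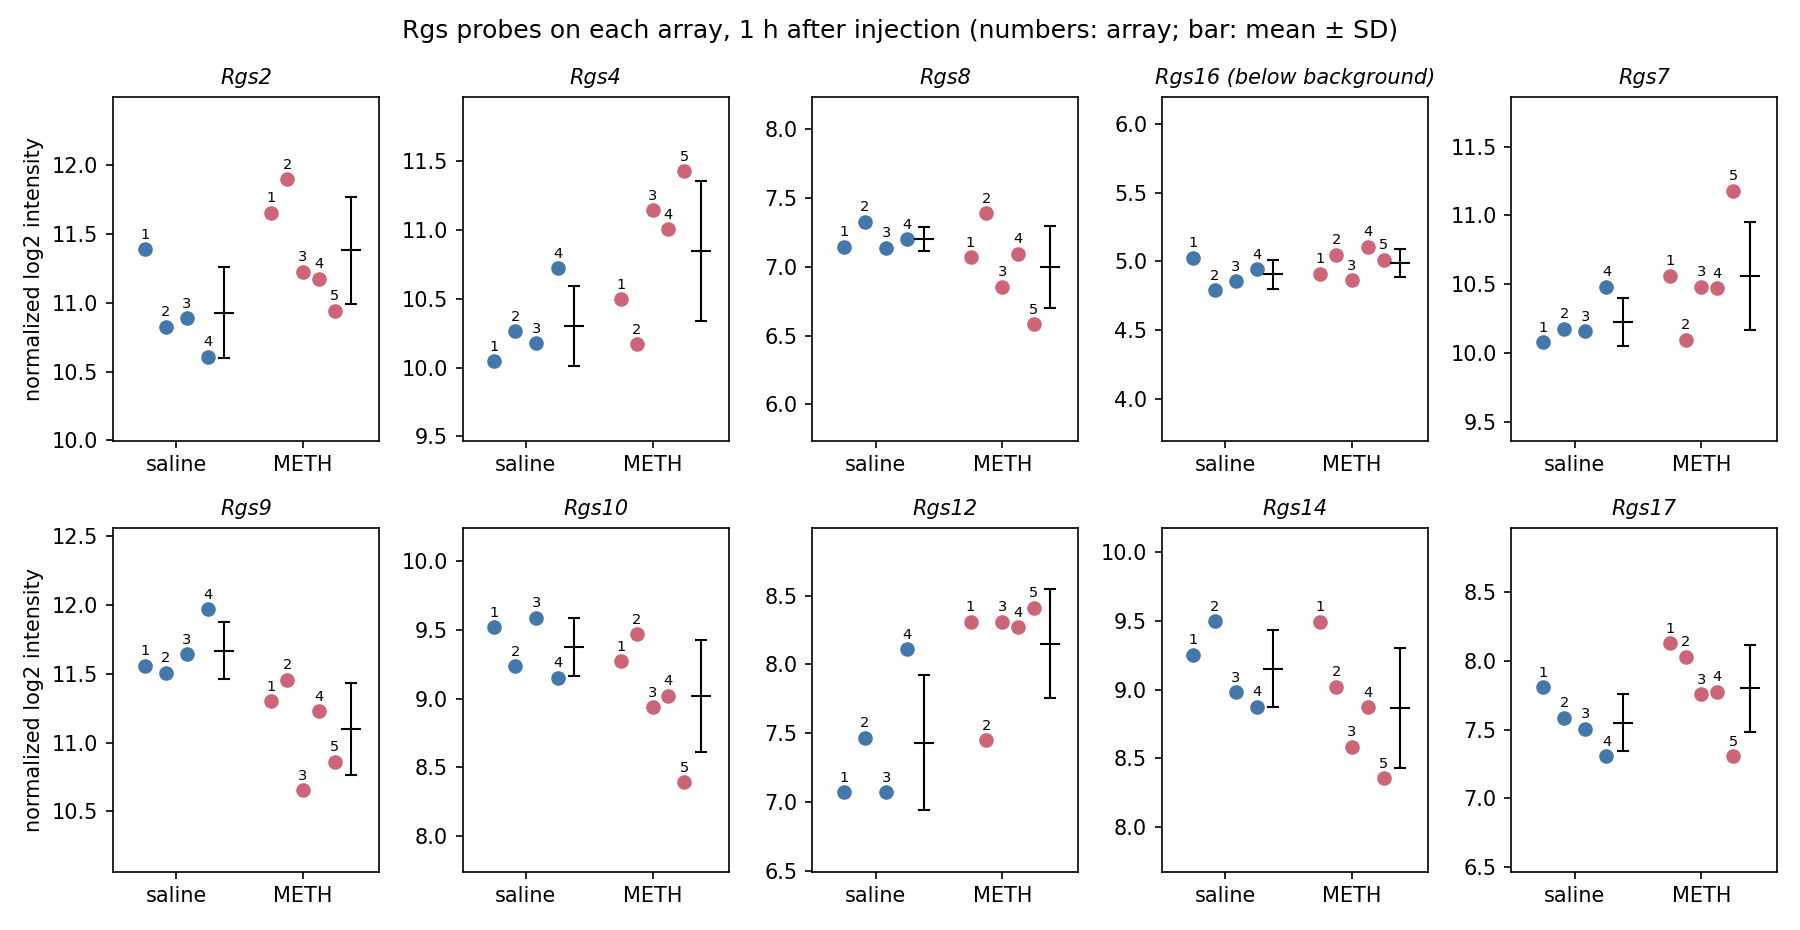
Each panel shows 1 Rgs probe, with the normalized log2 intensity on the vertical axis (every axis spans the same range), a numbered point for each of the 4 saline and 5 METH arrays, and the mean ± SD as a bar. The METH and saline points are separate for Rgs9 alone among the tested probes, and METH array 2 lies apart from the other METH arrays for Rgs12.

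In the R7 group, Rgs9 had the smallest p of the 9 tested members. Its level was 11.56, 11.51, 11.64 and 11.97 on saline arrays 1 to 4. On METH arrays 1 to 5 it was 11.30, 11.46, 10.65, 11.23 and 10.86. Every METH array lay below every saline array, by 0.05 log2 units at the closest pair, saline array 2 and METH array 2. Rgs9 was the 1 tested member of 9 whose groups did not overlap (11.1%), and 4.26% of all probes tested were separate in this way. The share of all probes tested that were separate and lower with METH was 2.29%. The mean was 11.67 ± 0.21 (SD, n = 4) with saline and 11.10 ± 0.33 (SD, n = 5) with METH, or 1.48-fold lower with METH (log2 difference -0.57 ± 0.17 SE, 95% interval -0.94 to -0.19, adjusted p = 0.229). A larger absolute difference was found for 3.86% of all probes tested. The striatal markers are a list without the Rgs genes. Of 20 tested, 0 passed. At an unadjusted p under 0.05 in limma's fit there were 10, Arpp21 with a higher mean and the others with a lower one. Of all probes tested, 5.33% were at such a p with a higher mean and 5.66% with a lower mean. The list was chosen with earlier results of these data known, so this count is a description. Of the 20 markers, 18 had a lower mean with METH, and their median difference was -0.43. Their summed level was 28347 to 34656 on saline arrays and 18883 to 30564 on METH arrays. Per METH array their median was -0.28, -0.02, -0.54, -0.36 and -0.83, where Rgs9 was -0.37, -0.21, -1.02, -0.44 and -0.81 from its saline mean. Per saline array their median was 0.13, -0.06, 0.05 and -0.18, where Rgs9 was -0.11, -0.16, -0.03 and 0.30, so saline array 4 was the lowest control in the markers and the highest in Rgs9. The part of the striatal share of the tissue in the Rgs9 difference was not tested.

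Rgs7, whose protein also acts on Gi and Go, had a level of 10.08, 10.18, 10.16 and 10.48 on saline arrays and 10.56, 10.10, 10.48, 10.47 and 11.18 on METH arrays. METH array 5 lay 0.62 above the next highest METH array, and the groups overlapped. The log2 difference was 0.33 ± 0.19 SE (95% interval -0.07 to 0.74, adjusted p = 0.541). R7 proteins are stable only in a complex with the atypical beta subunit encoded by Gnb5. Gnb5 was the 1 tested gene of 5 listed as R7 partners, and its log2 difference was -0.18 ± 0.16 SE (adjusted p = 0.721). Rgs9bp, which encodes an anchor of Rgs9 in photoreceptors, was above background on no array.

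In the R12 group, Rgs12, a large scaffold with several protein interaction domains, had the largest difference of the 9 tested members. Its level was 7.07, 7.47, 7.07 and 8.11 on saline arrays 1 to 4. It was 8.31, 7.45, 8.31, 8.27 and 8.41 on METH arrays 1 to 5. In the METH group, 4 arrays lay above every saline array, whereas METH array 2 lay within the saline range, and saline array 4 stood above the other controls. The mean was 7.43 ± 0.49 (SD, n = 4) with saline and 8.15 ± 0.40 (SD, n = 5) with METH, a 1.65-fold difference (log2 difference 0.72 ± 0.24 SE, 95% interval 0.19 to 1.25, adjusted p = 0.284). A larger absolute difference was found for 2.10% of all probes tested. Rgs12 passed when METH array 2 was left out (log2 difference 0.90, adjusted p = 0.046), where 2.50% of all probes tested passed. It also passed with array weights (0.87, adjusted p = 0.043), where 2.51% of all probes did. In the reported fit of all 9 arrays that share was 0.521%. The median of the 4 cortical markers was -0.15 on METH array 2, where the other METH arrays were at 0.27 to 0.96. It was 0.27 on saline array 4, where the other saline arrays were at -0.27 to 0.08. The 4 genes did not move together. Bhlhe22 and Fezf2 were lower on METH array 2 than on any other METH array, and Lamp5 and Tle4 were higher. The other 4 tested cortical markers, at background on some arrays, were also lowest on METH array 2 among the METH arrays. Their levels there were 4.71 (Slc17a7), 4.75 (Neurod6), 5.00 (Neurod2) and 4.62 (Neurod1). The part of cortical tissue in the Rgs12 difference was not tested.

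Rgs10, a small RGS protein gene known for its high expression in microglia, had a level of 9.52, 9.24, 9.59 and 9.15 on saline arrays and 9.27, 9.47, 8.94, 9.02 and 8.39 on METH arrays. METH arrays 3, 4 and 5 lay below every saline array. The log2 difference was -0.36 ± 0.19 SE (95% interval -0.78 to 0.07, adjusted p = 0.540). Of 7 tested microglial markers 0 passed, with a median of -0.10, and METH array 5 was lowest in these as well (-0.46). On METH array 3 their median was -0.06 where Rgs10 was at -0.44, and saline array 4 was the highest control in these markers (0.10) and the lowest in Rgs10 (-0.22). The summed level of these markers was 1706 to 2155 on saline arrays and 1239 to 2159 on METH arrays. The part of the microglial share of the tissue in the Rgs10 difference was not tested. Rgs14, whose protein also binds Ras-like GTPases, had levels from 8.87 to 9.49 with saline and from 8.36 to 9.49 with METH, with a log2 difference of -0.29 ± 0.21 SE (95% interval -0.75 to 0.18, adjusted p = 0.659). Rgs17, the RZ member, which acts on Gi, Go and Gz, had levels from 7.30 to 7.81 with saline and from 7.31 to 8.13 with METH. Its log2 difference was 0.25 ± 0.17 SE (95% interval -0.13 to 0.62, adjusted p = 0.639). The groups overlapped for Rgs14 and for Rgs17.

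The members did not follow one order of arrays. Rgs4, Rgs7 and Rgs12 were each highest on METH array 5, at 1.12, 0.96 and 0.98 above the saline mean, and each was also highest among the controls on saline array 4. Rgs8, Rgs10 and Rgs14 were each lowest on METH array 5, at -0.62, -0.98 and -0.79. Rgs2 and Rgs17 went another way. Both were highest on METH arrays 1 and 2 and lowest, among the METH arrays, on METH array 5, where Rgs2 was 0.015 above and Rgs17 0.24 below the saline mean. Among the controls both were highest on saline array 1 and lowest on saline array 4.

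**Figure D3:**
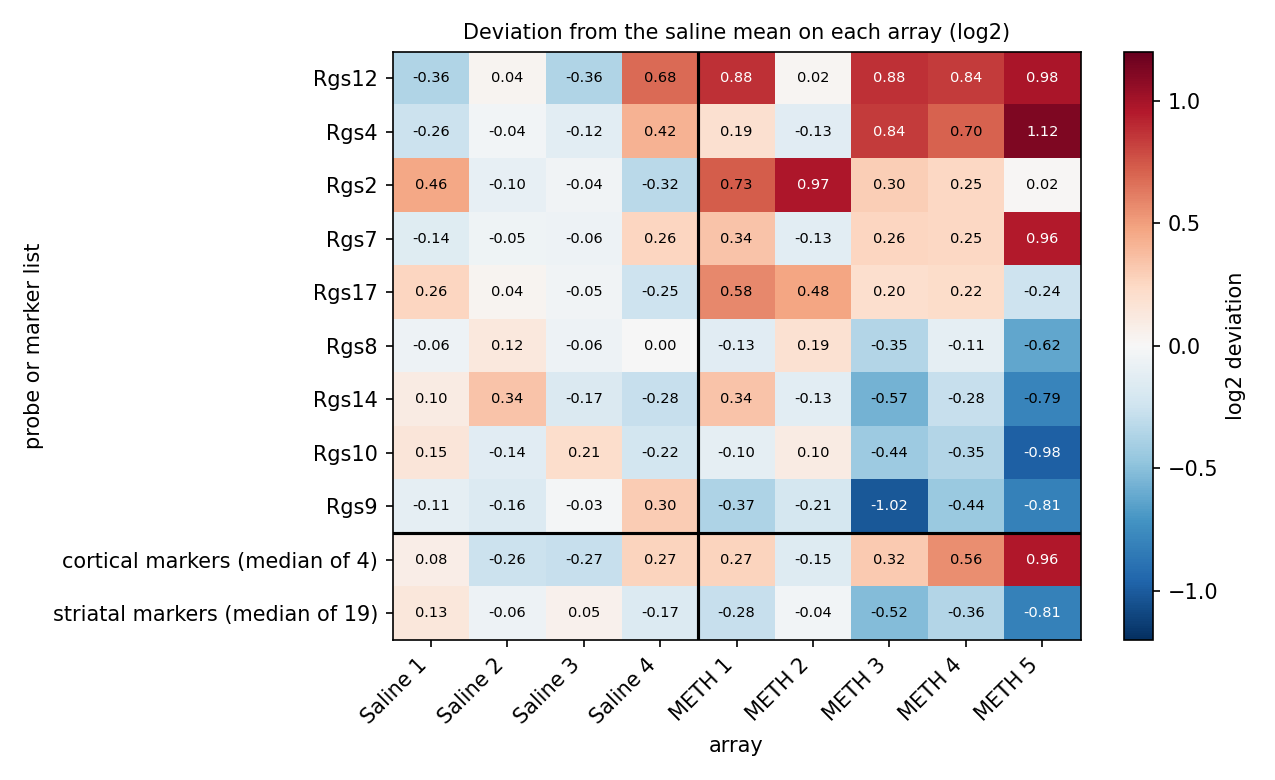
Each cell gives the log2 deviation of a probe from its saline mean on 1 array, with the saline arrays left and the METH arrays right of the vertical line, and the last 2 rows give the median deviation of the 4 cortical and of the 19 striatal markers that were above background on all 9 arrays. Rgs12, Rgs4 and Rgs7 are high on METH array 5, where the cortical median is 0.96, and Rgs8, Rgs14, Rgs10 and Rgs9 are low there, where the striatal median is -0.81.

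The cortical markers are given here as a whole list. Of 8 tested, 0 passed, 6 had a higher mean with METH and 2 a lower one, and their median difference was 0.84. Of the 8, 4 were at background on some arrays. Of the 4 above background on all 9 arrays, 2 had a higher mean with METH and 2 a lower one, and their median difference was 0.45. Over all 10 with a named probe and no filter, 8 were higher and 2 lower, with a median of 0.63. The summed level of those 4 was 2893 to 3689 on saline arrays and 2352 to 3586 on METH arrays. The brightest were the membrane protein gene Lamp5, with a log2 difference of -0.35, and the transcription factor gene Bhlhe22, at 1.04, and the third was the corepressor gene Tle4, at -0.11. The fourth was the transcription factor gene Fezf2, at 1.02. The vesicular glutamate transporter gene Slc17a7, singled out after its values were seen, was above background on 2 of 4 saline arrays and 4 of 5 METH arrays. Its level was 4.90, 5.48, 4.71 and 6.58 on saline arrays and 7.36, 4.71, 8.31, 8.01 and 7.72 on METH arrays. None of the 10 cortical genes with a named probe was below background on all arrays.

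The arrays lay on 2 slides, each with both groups, where the slide was taken from the number that begins each array's identifier. Slide 1 held saline arrays 1 and 2 and METH arrays 1 and 2, and slide 2 held the other 2 saline and 3 METH arrays. For Rgs9 the log2 difference was -0.15 within slide 1 and -0.89 within slide 2. For Rgs4 it was 0.18 and 0.74, and for Rgs10 it was -0.01 and -0.59. Rgs12 was 0.61 and 0.74, Rgs2 0.67 and 0.37, and Rgs17 0.38 and 0.21. The difference between slides was not tested. With slide as a block, the log2 differences of Rgs9, Rgs4, Rgs2 and Rgs12 were -0.56, 0.49, 0.50 and 0.68, and no member passed (limma, lowest adjusted p = 0.196, for Rgs2).

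**Figure D4:**
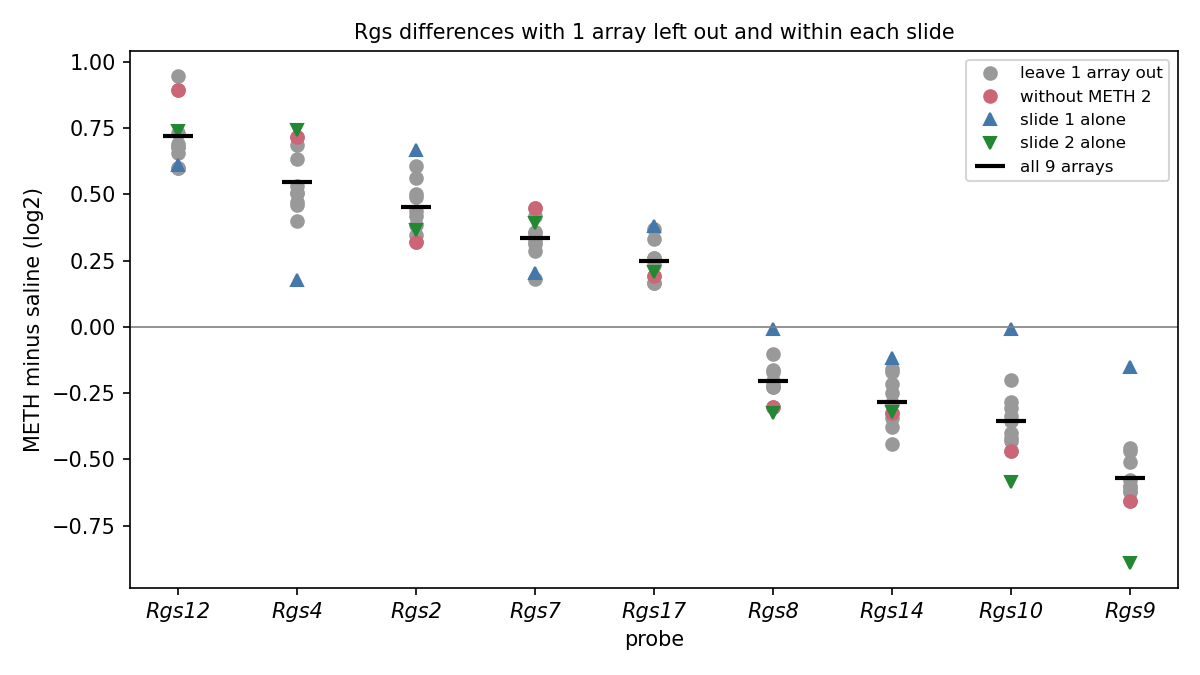
The vertical axis is the METH minus saline difference in log2 units for each tested Rgs probe, as a black bar for all 9 arrays, as circles with 1 array left out (red for METH array 2) and as triangles within each slide. Every symbol of a probe lies on the same side of 0, and slide 1 is nearest to 0 for Rgs4, Rgs8, Rgs10, Rgs14 and Rgs9.

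Other genes of the pathway were read from lists, each gene by its brightest tested probe. None passed in any list (limma, 0 of 58 tested), where 0.521% of all probes did. At an unadjusted p under 0.05 there were 14 of the 58, 8 with a higher and 6 with a lower mean, where the shares of all probes tested were 5.33% and 5.66%. Of those with a lower mean, Adora2a, Drd1, Drd2 and Ppp1r1b are also striatal markers, so the lists are not separate observations. The lists were chosen with earlier results of these data known, so these counts describe the listed genes and are no test of the pathway. Among other genes with an RGS domain, 3 of 13 listed were tested, with a median log2 difference of -0.03 (-0.02 over all probes tested), and Rgs1, Rgs5, Rgs18 and Rgs20 were above background on no array. The smallest p in this list belonged to the Wnt pathway scaffold gene Axin1 (0.28, adjusted p = 0.494) and to Rgs19 (-0.25, adjusted p = 0.592). Of 15 tested G protein subunit genes the median was 0.09. The gamma subunit gene Gng7, which is abundant in striatum and pairs with the olfactory-type alpha subunit, was lower at -0.85 ± 0.19 SE (adjusted p = 0.090) and passed without METH array 2 (adjusted p = 0.039) and without METH array 5 (0.024). The alpha subunit gene Gnaz was at 0.44 (adjusted p = 0.276).

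Among 19 tested receptor genes, the median was 0.04. The somatostatin receptor gene Sstr1 was at 1.40 ± 0.32 SE (adjusted p = 0.111) and the muscarinic receptor gene Chrm3 at 1.22 ± 0.28 SE (adjusted p = 0.115). Without METH array 2, 6 of the 19 receptor genes passed, where 2.50% of all probes tested did. Among these was Grm2, which was above background on 1 saline and 4 METH arrays and was at 4.785 on METH array 2. The list was chosen with earlier results of these data known, so its share is a description only. The dopamine receptor genes Drd3 and Drd4 were above background on no array. Of 4 tested receptor kinase and arrestin genes the median was -0.003. The receptor kinase gene Grk2 was at 0.51 (adjusted p = 0.383) and Grk4 at -0.11 (adjusted p = 0.833). Of 16 tested effector genes the median was -0.008, with Ppp1r1b at -0.65 (adjusted p = 0.386) and the protein kinase A regulatory subunit gene Prkar2b at -0.34 (adjusted p = 0.463).

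The genes whose levels were most like a member over the 9 arrays were ranked by Pearson correlation among 7192 named genes, as a description. Taking the highest of so many genes over 9 arrays favours high values, so these correlations alone do not show a link. The arrays share treatment and dissection, and the value after subtracting each group's mean is given second. For Rgs2 the 5 most alike were Coil (0.958 and 0.944), Cacybp (0.946 and 0.961), Dnaja1 (0.933 and 0.910), Cdo1 (0.929 and 0.921) and Gmps (0.928 and 0.890). For Rgs4 they were Neurod1 (0.986 and 0.980), a cortical marker, Baalc (0.982 and 0.975), Mpped1 (0.977 and 0.970), Sez6l2 (0.969 and 0.954) and Rxfp1 (0.966 and 0.948). Of these, Neurod1 and Rxfp1 were above background on 4 of the 9 arrays and Mpped1 on 5, so their correlations take in values at background. For Rgs9 they were Eci1 (0.964 and 0.940), Abhd1 (0.951 and 0.885), Zfp414 (0.935 and 0.847), Adora2a (0.932 and 0.839), a striatal marker, and Tial1 (0.931 and 0.862).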

How the data were processed

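Expression in rat nucleus accumbens at 1 h was measured on Illumina beadchips with 22523 probes. Per the submitters' processing notes, the authors exported the deposited intensities from BeadStudio, whose version is not given in the sources used here. Values down to -27.8 show that background had been subtracted, and array medians of 11.9 to 18.5 that no scaling between arrays had been done. The deposited detection p-value of each probe is low for bright probes. The 2 deposited tables held the same intensities (largest difference 0). The 23 detection columns of the later arrays were not used, and the rank correlation of the intensities of those arrays with the 1 h arrays was -0.0095 to 0.00062, against 0.925 to 0.961 among the latter.

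The 9 arrays were normalized by neqc (limma 3.58.1, R 4.3.3). It estimates background from the detection p, adds 16 to each value, quantile-normalizes the arrays and takes log2. The added 16 understates changes of dim probes. A probe was tested where 4 or more arrays had a detection p below 0.05, which held for 9987. Group means were compared by two-sided tests (lmFit, then eBayes with trend), and p-values were adjusted by the Benjamini-Hochberg method over all probes tested, with 0.05 as the threshold. Gene names came from the platform annotation (1 name for 13793 probes, none for 8730), and 13752 named probes matched the RefSeq table by Entrez ID, which changed 0 names. No probe sequences were used here, so the splice forms a probe covers are not known. Of each pathway list, the rule named up to 4 genes past the threshold or else the 2 with the smallest p, and of the striatal and cortical markers the 3 brightest. Members and lists were chosen with earlier results of these data known. The alternatives were no background correction, unscaled intensities, other detection filters, no trend, weighted arrays, a block for slide or for replicate number, each slide by itself and each array left out in turn. Same-numbered saline and METH arrays correlated at 0.053, 0.020, -0.031 and 0.443 in their deviations from the group means, so the numbers were not taken as pairs.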

Additional observations from a re-analysis of the deposited data

Results flagged for a closer look

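One value stood out among the 20 groups of arrays checked (10 probes in each of the 2 treatments), of which chance alone flags about 1 in 20. The level of Rgs12 on METH array 2 was 7.45, while the other 4 METH arrays lay between 8.27 and 8.41. By Dixon's test, its gap to the nearest METH array was 0.854 of the range of the group, above its 95% critical value. The median of the 4 cortical markers on that array was -0.15, the lowest of the METH arrays. Of these markers, Bhlhe22 and Fezf2 were lowest there among the METH arrays, and Lamp5 and Tle4 were highest. The cortical markers Slc17a7, Neurod1, Neurod2 and Neurod6, at background on some arrays, were lowest there as well.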

How the results depend on the processing

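Across 19 alternatives and the 9 tested members, 167 of 171 values kept their direction and their side of the threshold. Rgs12 passed in 3 settings, with a log2 difference of 1.03 in unscaled intensities (adjusted p = 0.031), 0.87 with array weights (0.043) and 0.90 without METH array 2 (0.046), and its adjusted p over all alternatives ran from 0.031 to 0.885. In these 3 settings 2.25%, 2.51% and 2.50% of all probes tested passed, against 0.521% in the reported fit. The value of Rgs8 turned to 0.020 in unscaled intensities. There the median of all probes was 0.23, and relative to it Rgs8 was at -0.21 and Rgs12 at 0.80. The cause of the other changes was not tested. With single arrays left out, log2 differences ran from 0.60 to 0.95 for Rgs12, 0.40 to 0.71 for Rgs4, 0.32 to 0.61 for Rgs2, 0.18 to 0.45 for Rgs7, 0.17 to 0.37 for Rgs17, -0.30 to -0.10 for Rgs8, -0.44 to -0.16 for Rgs14, -0.47 to -0.20 for Rgs10 and -0.66 to -0.46 for Rgs9.

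The count of probes past the threshold was 52 in the reported fit, 225 in unscaled intensities (224 higher), 251 with array weights (159 higher, or 63.3% against 94.2%), 16 within slide 2 and 31 to 250 with single arrays left out. With the replicate number as a block, on arrays 1 to 4 of each group, it was 81, and no Rgs gene passed. Only 1 of the 4 saline arrays correlated best with the METH array of its own number.

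Among the pathway genes, Gng7 alone of the subunits passed with array weights, with the replicate block and without METH array 2 or 5, and Gnaz alone in unscaled intensities (1 each time, 0 to 1 with single arrays left out). Of the receptors, 3 passed in unscaled intensities (Chrm3, Sstr1 and Sstr2), 5 with array weights (the same and Adora2a and Grm2), 2 with the replicate block (Sstr1 and Sstr2) and 0 to 6 with single arrays left out. All probes passed at 2.25%, 2.51% and 0.811% in the first 3 of these. Grm2 was above background on 1 saline and 4 METH arrays. List medians in unscaled intensities, where all probes were at 0.23, were 0.23 for other RGS-domain genes, 0.081 for Gnb5, 0.32 for subunits, 0.31 for receptors, 0.28 for kinases and arrestins and 0.26 for effectors. The median of the other RGS-domain genes (3 tested) was -0.14 with the stricter filter, under which Axin1 was no longer tested. This median was also -0.14 with the replicate block, -0.13 within slide 1 and -0.14 to 0.083 with single arrays left out. That of the subunits was -0.10 within slide 1, that of the effectors 0.069 within slide 2, and that of the receptors 0.0036 to 0.16 with single arrays left out. The median of the cortical markers, 0.45 over the 4 above background on all arrays, was 0.63 over all 10 named and 0.84 over the 8 tested, both added after the data were seen. The number of arrays limits these values.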
